A study of Homo sapiens with 4 samples.

Results

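The respiratory chain genes analysed here were the protein-coding genes whose symbols name subunits of complexes I to IV or of ATP synthase. They were selected by symbol pattern from a TPM table of MV4-11 cells, a human acute myeloid leukemia (AML) line. The pattern uses no expression value, but it was chosen with earlier results of these data known. Of 18885 genes listed, 94 were selected, 13 of them encoded in mitochondrial DNA and 81 in the nucleus. TPM are read densities over gene length, scaled to about the same total in each library. All 94 genes passed the filter on low values (at least 1 TPM in at least 2 libraries). The pattern does not reach COX4I1, NDUFAB1 and CYCS, which are described separately below. The annotated genes COX6A2, COX6B2, COX7B2, ATP5MGL and the fusion transcripts ATP5MF-PTCD1 and NDUFC2-KCTD14 fit it but were not analysed here.

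The study compared a control group (NC) with cells in which ANP32B, a histone-binding chaperone of the acidic nuclear phosphoprotein family, was knocked down by shRNA (sh-ANP32B). Each group had 2 libraries, made from total RNA of bulk cells. The labels describe the NC cells as untreated and without an shRNA, whereas the study's methods name a control hairpin, sh-NC. The effect of ANP32B loss and any effect of delivering a hairpin cannot be told apart if the control carried none. The sh-ANP32B columns are headed S3 and were matched to their samples by cell line and replicate number. Which of the study's hairpins that code marks is not stated in the sources used here. Nothing in the labels says that the libraries came from separate cultures, and the p-values below measure only the spread between these libraries, which may be technical.

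The respiratory chain passes electrons from NADH and succinate to oxygen in the inner mitochondrial membrane. Complexes I, III and IV pump protons as they do so, and ATP synthase (complex V) uses the resulting gradient to make ATP. Complex II, which is also an enzyme of the citric acid cycle, is encoded in the nucleus alone, whereas complexes I, III, IV and V are assembled from subunits of both genomes. The mitochondrial mRNAs are cut from long transcripts that a dedicated RNA polymerase makes within the organelle. The nuclear mRNAs are transcribed one gene at a time, and their promoters are known targets of NRF1 and of ETS-family factors such as GABP.

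Targeted knockdown was clear in these libraries. ANP32B (ENSG00000136938) went from 358 and 364 TPM in NC to 54.1 and 49.3 TPM in sh-ANP32B, or 14.3% of the NC mean, with a log2 fold change of -2.78 (SE 0.056, limma adjusted p = 2.89e-05). All fold changes are sh-ANP32B against NC on the log2(TPM + 1) scale, which understates the change of low genes, with Benjamini-Hochberg adjustment of p over 16937 genes. A gene is said to have risen or fallen only at an adjusted p below 0.05. Over all genes tested, the median log2 fold change was 0.08. Of the myeloid markers PTPRC, CD33, SPI1, CEBPA and FLT3, all 5 were detected, and MPO was not analysed here. Monocyte markers moved with the knockdown. Of 8 such markers 6 were measured, of which CD68, LYZ, ITGAM, TYROBP and FCER1G rose. The summed level of the 6 was 575 to 580 TPM in NC and 6082 to 6121 TPM in sh-ANP32B. Most of that sum was LYZ, at 471 and 463 TPM in NC and 5308 and 5260 TPM in sh-ANP32B. CSF1R was at 2.36 TPM or less in every library, and CD14 and CD163 were not analysed here. Their part in the results below was not tested. The erythroid marker KLF1 was at 3.50 TPM or less, and EPCAM, KRT19, COL1A1 and PDGFRB were not analysed here.

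The mRNAs of the mitochondrial and nuclear genomes moved apart. The 13 mitochondrial mRNAs made up 12.9% and 12.5% of all TPM in the NC libraries and 14.5% and 14.4% in the sh-ANP32B libraries. The 81 nuclear mRNAs together made up 1.40% and 1.42% in NC and 1.22% and 1.23% in sh-ANP32B. The groups did not overlap on either measure, the first being higher and the second lower after knockdown. The ratio of the mitochondrial to the nuclear sum, which does not change when a library is multiplied by a single factor, was 9.17 and 8.79 in NC and 11.9 and 11.7 in sh-ANP32B, or 8.98 ± 0.27 against 11.8 ± 0.14 (mean ± SD, n = 2 each), a 1.31-fold difference. With 2 libraries per group, an exact permutation test of a single value cannot give a two-sided p below 0.33. Because these are bulk samples, fewer cells of a type and less RNA per cell cannot be told apart.

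**Figure D1:**
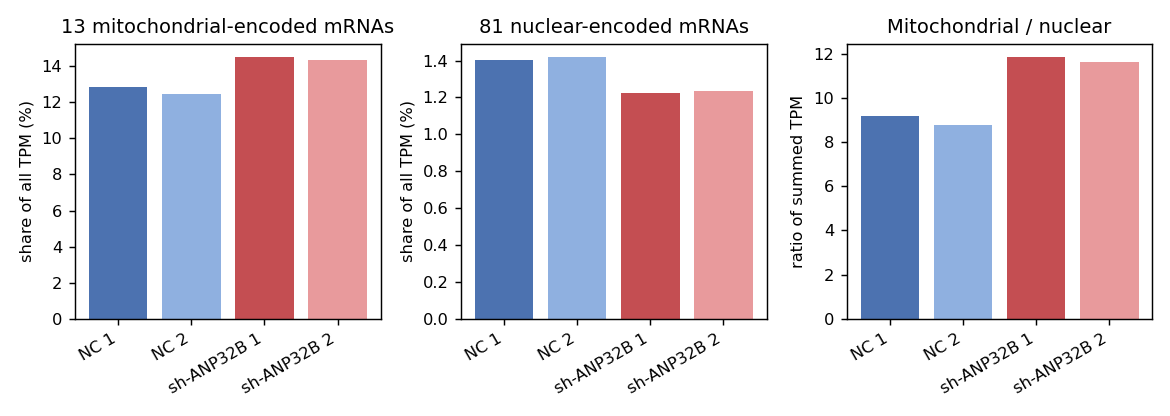
Summed TPM of the 13 mitochondrial and of the 81 nuclear respiratory chain mRNAs as a percent of all TPM, and the ratio of the sums, in each of the 4 libraries (1 bar per library, no error bars). The mitochondrial share lies between 12.5% and 12.9% in NC and between 14.4% and 14.5% in sh-ANP32B, and the nuclear share is lower in both sh-ANP32B libraries than in both NC libraries.

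Of the 81 nuclear genes, 41 fell (50.6%), 9 rose (11.1%) and 31 did not pass the test. The background over all genes tested was 19.7% lower and 26% higher. Well expressed genes were called more often, and at mean levels of 50 TPM or more the background was 40.6% lower and 30.8% higher. Of the 61 nuclear respiratory chain genes at that level, 36 fell (59.0%) and 4 rose (6.56%). The groups did not overlap for 53 nuclear genes that were lower and 13 that were higher, beside 32.1% and 42.5% of all genes. Most of the changes were small. At the limits the study used (a change beyond 0.5 on the log2 scale at an unadjusted p below 0.05), 6 nuclear genes were lower and 1 was higher, beside 10.8% and 20.2% of all genes. The median log2 fold change of the nuclear genes was -0.19, with a range of -0.96 to 0.61. The count of 41 lower genes was 21 when the variance was modelled without a trend with expression level. It lay between 29 and 39 with each library left out in turn, while the 9 higher genes became 5 without NC replicate 2 and 4 without sh-ANP32B replicate 2.

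Of the 13 mitochondrial genes, 10 rose (76.9%), 0 fell and 3 did not pass the limma test. The background was 26% higher and 19.7% lower over all genes, and 30.8% higher and 40.6% lower at 50 TPM or more. As these mRNAs are cut from long transcripts, the 13 genes are not 13 separate events. At an unadjusted p below 0.05, 1 (MT-ND1) was lower and 10 were higher, and MT-ND3 was also beyond 0.5 on the log2 scale. The share of all genes at that unadjusted limit alone was not determined, so these counts are no result about the 13 genes. Their median log2 fold change was 0.26. The number of mitochondrial genes called depended on scaling more than the number of nuclear genes that fell. Read at 2 decimals, 0 mitochondrial and 5 nuclear differences turned in sign under median-of-ratios scaling. Under quantile normalization 0 and 2 did, though the mitochondrial median was 0 there. Under median-of-ratios scaling 4 mitochondrial genes were higher and MT-ND1 was lower, and under quantile normalization 5 were higher and MT-ND1 was lower, while without a variance trend 3 were higher. Quantile normalization shifted the median of all genes by -0.12 on the log2 scale. Relative to that median, the nuclear genes were at -0.27 as deposited, at -0.28 under median-of-ratios scaling and at -0.14 under quantile normalization. The mitochondrial genes were at 0.18, 0.17 and 0.04 above it in the same order. Of all genes called, 43.1% were lower as deposited, and 52.6% and 52.7% were lower under these scalings.

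Promoter sequence is shown, among genes with a matched window, for the gene that fell furthest in each complex and for the one that rose furthest. NDUFA4L2, which fell further than COX7C in complex IV, was not matched. RefSeq promoter windows on GRCh38.p14 (250 bases before to 50 after the annotated start) were matched by symbol for 64 of the 81 nuclear genes. The 150 bases before the start are printed 5′ to 3′ on the gene's strand. Capitals mark matches on either strand to the NRF1 motif (GCGCA and GCGC with any 1 base between them), CCGGAAG (the ETS core bound by GABP), AAGATGGCG (YY1), CACGTG (the E-box bound by MYC) or CCAAT (the CCAAT box).
NDUFS4, chr5:53560489-53560638, + strand: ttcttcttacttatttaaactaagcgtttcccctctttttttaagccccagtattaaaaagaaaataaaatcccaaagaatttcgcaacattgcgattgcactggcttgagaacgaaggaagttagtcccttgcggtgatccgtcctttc
SDHA, chr5:218170-218319, + strand: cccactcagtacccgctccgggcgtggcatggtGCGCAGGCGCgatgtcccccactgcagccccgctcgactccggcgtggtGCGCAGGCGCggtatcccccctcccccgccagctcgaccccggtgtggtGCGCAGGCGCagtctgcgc
UQCR11, chr19:1605463-1605612, - strand: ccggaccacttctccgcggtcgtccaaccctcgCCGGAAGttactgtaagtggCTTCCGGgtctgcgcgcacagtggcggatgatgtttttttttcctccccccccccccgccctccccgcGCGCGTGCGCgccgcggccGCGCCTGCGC
COX7C, chr5:86617791-86617940, + strand: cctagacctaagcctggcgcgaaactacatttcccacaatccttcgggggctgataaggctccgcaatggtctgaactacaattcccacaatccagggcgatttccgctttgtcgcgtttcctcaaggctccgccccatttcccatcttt
ATP5MC1, chr17:48892637-48892786, + strand: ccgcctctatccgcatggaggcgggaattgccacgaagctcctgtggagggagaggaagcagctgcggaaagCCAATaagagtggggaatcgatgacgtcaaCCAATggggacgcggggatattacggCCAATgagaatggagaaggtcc
ATP5F1E, chr20:59032336-59032485, - strand: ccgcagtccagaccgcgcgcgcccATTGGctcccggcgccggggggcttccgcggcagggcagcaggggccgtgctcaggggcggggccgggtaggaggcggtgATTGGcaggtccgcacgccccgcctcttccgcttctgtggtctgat

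The stretch upstream of SDHA holds 3 copies of the NRF1 motif, that of UQCR11 holds 2 NRF1 and 2 ETS matches, and that of ATP5MC1 holds 3 CCAAT boxes. ATP5F1E, which rose, carries 2 CCAAT boxes in the opposite orientation. No searched motif stands in the stretches of NDUFS4 and COX7C. Over the whole windows, 17 of the 64 respiratory chain promoters held the NRF1 motif, beside 6.28% of all 27305 windows. The ETS core stood in 19 of them (10.7% of all windows), the YY1 motif in 8 (1.85%), the E-box in 7 (7.43%) and the CCAAT box in 21 (35.7%). Among the 35 of these genes that fell, 11 held the NRF1 motif and 9 the ETS core, and among the other 29 the counts were 6 and 10. As 79.0% of the nuclear genes had a window, a comparison of these shares over the nuclear genes is void, and the counts describe only the matched promoters. These matches are letters in a window, not evidence of binding.

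Mitochondrial DNA encodes 7 subunits of the membrane arm of complex I. Among them MT-ND3 (ENSG00000198840, chrM:10059-10404, plus strand) had the largest change. It measured 1700 and 1709 TPM in NC and 2439 and 2520 TPM in sh-ANP32B, a log2 fold change of 0.54 (SE 0.035, adjusted p = 2.66e-04). Both knockdown libraries lay above both NC libraries, which were close to each other. MT-ND5 rose from 2569 and 2563 TPM to 3571 and 3135 TPM (log2 fold change 0.38, adjusted p = 0.00612), and MT-ND2 from 7860 and 7661 TPM to 8733 and 8734 TPM (log2 fold change 0.17, adjusted p = 0.0141). MT-ND6, the only 1 of the 13 encoded on the other strand, measured 2404 and 2357 TPM in NC and 3237 and 2769 TPM in sh-ANP32B (log2 fold change 0.33, adjusted p = 0.0169). Under median-of-ratios scaling MT-ND2 stood at 0.086 (adjusted p = 0.207) and under quantile normalization at 0, and it was not called in either. The higher of the 2 knockdown values of MT-ND6 came from sh-ANP32B replicate 1, and without that library MT-ND6 stood at 0.22. Its call was lost under median-of-ratios scaling (adjusted p = 0.0535) and without a variance trend (adjusted p = 0.0794). It was also lost without NC replicate 2, where MT-ND6 stood at 0.32.

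The other complex I mRNAs of the mitochondrial genome did not pass the test. MT-ND4 measured 16150 and 15617 TPM in NC and 16027 and 15725 TPM in sh-ANP32B, and MT-ND4L, which shares a transcript and 7 bases with it, measured 6618 and 6828 TPM against 6701 and 6636 TPM. The groups overlapped for both, and the sign of the MT-ND4L difference (-0.01) turned when TPM were rescaled over nuclear genes. MT-ND1 measured 5933 and 5890 TPM in NC and 5489 and 5589 TPM in sh-ANP32B (log2 fold change -0.09, SE 0.035, adjusted p = 0.0760). It was the only mitochondrial mRNA with both knockdown libraries below both NC libraries. The complex I mRNAs spanned -0.09 to 0.54, and 6 of the 7 genes lie on the same strand.

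MT-CYB, the cytochrome b of complex III and its only mitochondrial subunit, measured 4717 and 4540 TPM in NC and 5586 and 5661 TPM in sh-ANP32B. It rose with a log2 fold change of 0.28 (SE 0.038, adjusted p = 0.00271). The catalytic subunits of cytochrome c oxidase (complex IV) were the most abundant of the 94 genes together with MT-ATP6 and MT-ND4. MT-CO1, which holds the oxygen-reducing center, went from 21368 and 20480 TPM to 25067 and 24932 TPM (log2 fold change 0.26, adjusted p = 0.00589). MT-CO2, which accepts electrons from cytochrome c, went from 16777 and 15924 TPM to 18486 and 18781 TPM (0.19, adjusted p = 0.0191), and MT-CO3 from 18815 and 18506 TPM to 21901 and 22685 TPM (0.26, adjusted p = 0.00542). In all 3 the knockdown libraries were above both NC libraries. None of the 3 was called under median-of-ratios scaling, where MT-CO1, MT-CO2 and MT-CO3 stood at 0.17, 0.10 and 0.17. All 3 stood at 0 under quantile normalization. Without a variance trend none was called either, with adjusted p of 0.0535, 0.109 and 0.0527 in the same order. MT-CO2 also lost its call without sh-ANP32B replicate 2, where it stood at 0.18.

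The 2 mitochondrial subunits of ATP synthase share a transcript and 46 bases. MT-ATP8 rose from 5169 and 5225 TPM to 6541 and 6075 TPM (log2 fold change 0.28, SE 0.047, adjusted p = 0.00593). MT-ATP6, which forms the proton channel, measured 18429 and 17253 TPM in NC and 20945 and 20074 TPM in sh-ANP32B (0.20, SE 0.051, adjusted p = 0.0242). The groups did not overlap for either, but the adjusted p of MT-ATP6 was 0.0622 without NC replicate 2 and 0.0816 without sh-ANP32B replicate 1. Under median-of-ratios scaling MT-ATP6 stood at 0.12 (adjusted p = 0.209) and under quantile normalization at 0.

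**Figure D2:**
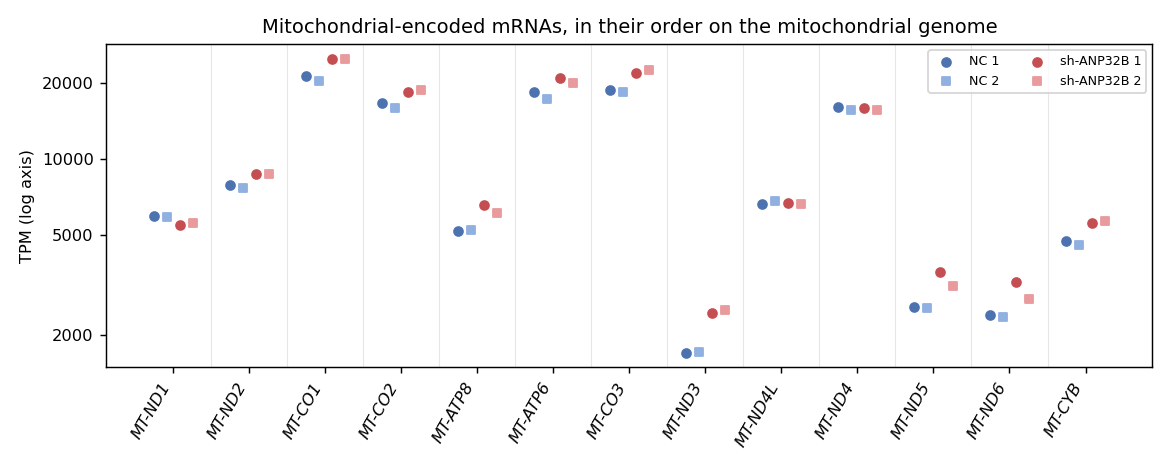
TPM of the 13 mitochondrial mRNAs in each library on a log axis, in the order of their genes. MT-ND3 shows the widest gap between the groups, with 1700 and 1709 TPM in NC against 2439 and 2520 TPM in sh-ANP32B, whereas the libraries of MT-ND4 and MT-ND4L overlap.

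Shares within the 13 mRNAs do not change when a library is multiplied by a single factor, though quantile normalization alters them. MT-ND3 made up 1.32% and 1.37% of their sum in NC and 1.69% and 1.76% in sh-ANP32B. MT-ND4 went the other way, from 12.6% and 12.5% to 11.1% and 11.0%, as did MT-ND1, from 4.62% and 4.73% to 3.79% and 3.90%. The mitochondrial mRNAs thus changed unequally, and MT-CO1, the most abundant, moved little within the sum, from 16.6% and 16.4% to 17.3% and 17.4%. Nuclear copies of mitochondrial DNA can take or give reads. For 9 of the 13 genes 11 such pseudogenes were listed, which summed to 4188 and 4094 TPM in NC and 5104 and 4733 TPM in sh-ANP32B. MTATP6P1 on chromosome 1 led them, with 3001, 2949, 3802 and 3359 TPM in the same order of libraries. The summed mitochondrial mRNAs differed by 0.19 on the log2 scale, both without and with these pseudogenes.

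Of 36 nuclear subunits of complex I, 18 fell, 7 rose and 11 did not pass the test, with a median log2 fold change of -0.20. Beside the counts of each complex and its parts stand the backgrounds given above, 19.7% lower and 26% higher over all genes. Among genes at 50 TPM or more they were 40.6% lower and 30.8% higher, and shares near these are no result about a complex. Among the 7 core subunits, which carry flavin and iron-sulfur clusters or bind quinone, NDUFV2, NDUFS8 and NDUFV1 fell and NDUFS1 rose. The share of the 7 that fell, 42.9%, was near the 40.6% and is no result about them. The calls of NDUFS8 and NDUFV1 were lost without a variance trend (adjusted p = 0.0892 and 0.121), and NDUFS8 stood at -0.17 without sh-ANP32B replicate 1. NDUFV1, which binds the flavin that NADH reduces, went from 397 and 389 TPM to 351 and 350 TPM (log2 fold change -0.17, SE 0.035, adjusted p = 0.0125). Without NC replicate 1 its adjusted p was 0.0559. NDUFS1, the largest iron-sulfur subunit, measured 33.5 and 35.0 TPM in NC and 40.3 and 38.7 TPM in sh-ANP32B (0.20, SE 0.063, adjusted p = 0.0461). That call is weak, since the adjusted p was 0.0850 to 0.170 when any 1 of the 4 libraries was left out and 0.156 under median-of-ratios scaling.

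Of the 29 accessory subunits of complex I, 15 fell and 6 rose. NDUFS4, which helps to hold the NADH-oxidizing module in place, measured 77.6 and 71.6 TPM in NC and 52.6 and 49.3 TPM in sh-ANP32B (log2 fold change -0.54, SE 0.065, adjusted p = 0.00178). NDUFS6, a zinc-binding subunit of the matrix arm, went from 84.4 and 87.5 TPM to 58.3 and 62.7 TPM (-0.50, SE 0.057, adjusted p = 0.00153). NDUFS5, in the membrane arm, was the most abundant of those with a large change, at 343 and 351 TPM against 247 and 249 TPM (-0.48, adjusted p = 3.77e-04). Both knockdown libraries lay below both NC libraries for each of these genes. NDUFB4 (-0.45), NDUFB6 (-0.42), NDUFB3 (-0.32), NDUFA8 (-0.30), NDUFB7 (-0.28) and NDUFA2 (-0.26) also fell. The call of NDUFB3 is weak, since it was lost without a variance trend (adjusted p = 0.0790), and NDUFB3 stood at -0.22 without sh-ANP32B replicate 1.

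The accessory subunits that rose were NDUFA13, NDUFB1, NDUFV3, NDUFA1, NDUFB5 and NDUFB2. The calls of NDUFA1, NDUFB5 and NDUFB2 were lost under median-of-ratios scaling (adjusted p = 0.0898, 0.0923 and 0.183), without a variance trend, and without NC replicate 2 or sh-ANP32B replicate 2 (adjusted p of 0.0636 to 0.119). That of NDUFB2 was also lost without NC replicate 1 (0.0860) or sh-ANP32B replicate 1 (0.0665). NDUFA13, known also as GRIM-19, measured 94.6 and 95.7 TPM in NC and 132.5 and 135.0 TPM in sh-ANP32B (log2 fold change 0.49, adjusted p = 5.78e-04). A second listed gene, ENSG00000258674, shares 437 exonic bases with it on the same strand, and it measured 54.3 and 62.2 TPM in NC and 21.9 and 16.3 TPM in sh-ANP32B. The sum of both was 149, 158, 154 and 151 TPM, and it differed by -0.00 on the log2 scale, so the call for NDUFA13 is uncertain. NDUFV3 went from 43.6 and 39.2 TPM to 53.5 and 57.0 TPM (0.41, SE 0.074, adjusted p = 0.00762) and NDUFB1 from 26.6 and 30.5 TPM to 36.9 and 42.6 TPM (0.46, SE 0.10, adjusted p = 0.0155). NDUFB1 lost its call without NC replicate 1 (adjusted p = 0.0592) and without sh-ANP32B replicate 2 (adjusted p = 0.0556). NDUFA3 had the lowest fold change of the complex (-0.56) with an adjusted p of 0.410, and rested on sh-ANP32B replicate 1, at 3.89 TPM beside 14.1 TPM in replicate 2 and 10.5 and 12.9 TPM in NC. Without that library its difference was 0.25, and without sh-ANP32B replicate 2 it was -1.37 with an adjusted p of 0.00448.

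Complex II, succinate dehydrogenase, has 4 nuclear subunits, of which 3 fell. SDHA, the flavoprotein that oxidizes succinate, measured 244 and 247 TPM in NC and 193 and 192 TPM in sh-ANP32B, 78.5% of the NC mean (log2 fold change -0.35, SE 0.036, adjusted p = 0.00109). SDHB, the iron-sulfur subunit, went from 243 and 241 TPM to 213 and 222 TPM (-0.15, adjusted p = 0.0283), and the membrane anchor SDHD from 163 and 161 TPM to 148 and 145 TPM (-0.14, adjusted p = 0.0301). The knockdown libraries were below both NC libraries in all 3. The other anchor, SDHC, lay the other way, at 32.9 and 31.2 TPM against 39.3 and 35.7 TPM (0.22, SE 0.075, adjusted p = 0.0602), without passing the test. SDHD lost its call when any 1 library was left out (adjusted p of 0.0653 to 0.120). SDHB lost it without NC replicate 1 (0.0987), NC replicate 2 (0.0753) or sh-ANP32B replicate 1 (0.119). SDHA shares 1887 exonic bases with ENSG00000286001, which was not analysed here, and its pseudogenes SDHAP1 and SDHAP4 were listed at 50.2 TPM or less.

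Complex III held the largest fall of the 94 genes. UQCR11, a small accessory subunit, measured 54.0 and 54.2 TPM in NC and 27.9 and 26.5 TPM in sh-ANP32B, 50.4% of the NC mean (log2 fold change -0.96, SE 0.061, adjusted p = 2.51e-04). It shares 235 exonic bases with ENSG00000267059, which was not analysed here. CYC1, the cytochrome c1 that hands electrons to cytochrome c, went from 538 and 564 TPM to 371 and 360 TPM (-0.59, SE 0.041, adjusted p = 3.19e-04). The groups did not overlap for either gene. UQCRH, the hinge protein beside cytochrome c1, fell from 424 and 429 TPM to 311 and 346 TPM (-0.38, adjusted p = 0.00415), and the core protein UQCRC1 from 416 and 413 TPM to 340 and 343 TPM (-0.28, adjusted p = 0.00184).

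The other electron carrier of the complex, the Rieske iron-sulfur protein UQCRFS1, did not pass the test. It measured 66.9 and 64.3 TPM in NC and 60.9 and 61.5 TPM in sh-ANP32B (log2 fold change -0.10, SE 0.051, adjusted p = 0.166), and was lower under median-of-ratios scaling (-0.18, adjusted p = 0.0414). UQCRB, a small subunit near the quinone site, rose from 96.7 and 99.9 TPM to 129 and 128 TPM (0.38, SE 0.043, adjusted p = 0.00143). UQCR10 had a difference of 0.00, and UQCRHL, a retrocopy of UQCRH, was at 5.08, 3.82, 5.56 and 5.16 TPM. In all, 4 of 10 nuclear genes of complex III fell (40%), 1 rose and 5 did not pass the test. The share that fell was near the 40.6% of genes at 50 TPM or more, so it is no result about complex III.

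**Figure D3:**
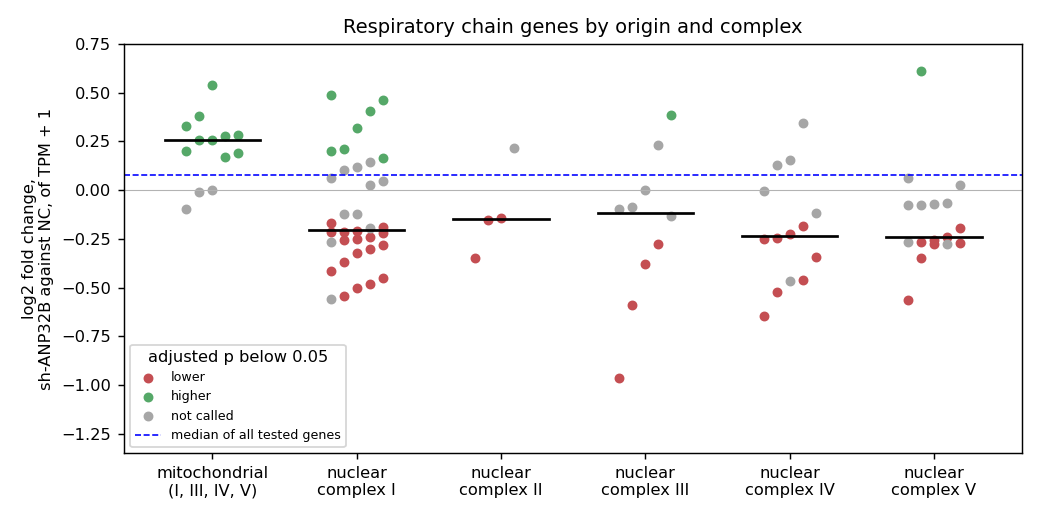
Log2 fold change (sh-ANP32B against NC, log2(TPM + 1) scale) of each of the 94 genes, grouped by complex and genome (1 point per gene), with color for adjusted p below 0.05. Nuclear genes lie mostly below 0, down to -0.96 for UQCR11 and up to 0.61 for ATP5F1E, whereas 10 of 13 mitochondrial genes lie above 0 and are called. Black lines are group medians and the dashed line is the median of all tested genes, 0.08.

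Of 14 nuclear genes of complex IV, here with NDUFA4 and its paralog NDUFA4L2, 8 fell, 0 rose and 6 did not pass the limma test. At an unadjusted p below 0.05, 8 were lower and 1 (NDUFA4) was higher. The share of all genes at that unadjusted limit was not determined, so these counts are no result about complex IV. COX7C measured 258 and 273 TPM in NC and 176 and 192 TPM in sh-ANP32B (log2 fold change -0.52, SE 0.057, adjusted p = 0.00130). COX6A1, the subunit isoform found in most tissues, went from 387 and 384 TPM to 275 and 286 TPM (-0.46, SE 0.038, adjusted p = 5.03e-04). COX8A, the smallest subunit, went from 520 and 489 TPM to 425 and 422 TPM (-0.25, adjusted p = 0.00585), and COX5A fell by 0.35 on the log2 scale (adjusted p = 0.00299). The knockdown libraries lay below both NC libraries in these 4 genes. COX7A2 (-0.25), COX7B (-0.22) and COX6B1 (-0.18) fell too, though COX7B lost its call whichever library was left out (adjusted p of 0.0650 to 0.144) and COX6B1 without NC replicate 2 (0.0723) or sh-ANP32B replicate 2 (0.0764).

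Pairs of isoforms and paralogs did not all move alike. NDUFA4, which is the form most cells use, measured 104 and 102 TPM in NC and 110 and 115 TPM in sh-ANP32B (log2 fold change 0.13, SE 0.047, adjusted p = 0.0736). NDUFA4L2, known as a hypoxia-induced gene, measured 25.7 and 28.4 TPM in NC and 13.4 and 21.2 TPM in sh-ANP32B (-0.64, SE 0.20, adjusted p = 0.0488). The call of NDUFA4L2 was lost without NC replicate 1 (adjusted p = 0.0907), NC replicate 2 (0.148) or sh-ANP32B replicate 1, where it stood at -0.33 (0.0620). SHMT2, which overlaps it by 33 exonic bases on the other strand, measured 351 and 354 TPM in NC and 217 and 228 TPM in sh-ANP32B. The muscle isoform COX7A1 was near 1 TPM, and the testis isoform COX8C was at 29.6, 33.5, 31.4 and 51.7 TPM, with overlapping groups (0.35, adjusted p = 0.255). COX8C stood at 0.70 without sh-ANP32B replicate 1 (adjusted p = 0.00507). COX7A2L, a factor in the joining of complexes III and IV, was at 79.1 and 65.4 TPM in NC and 40.1 and 66.7 TPM in sh-ANP32B (-0.47, adjusted p = 0.159), with the low value in 1 library, and without sh-ANP32B replicate 2 it stood at -0.83 (adjusted p = 0.00550).

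ATP synthase had 17 nuclear genes, of which 8 fell, 1 rose and 8 did not pass the test. In the catalytic F1 head, ATP5F1B, the catalytic beta subunit and the most abundant nuclear gene of all 81, went from 1107 and 1092 TPM to 921 and 894 TPM (log2 fold change -0.28, SE 0.035, adjusted p = 0.00201). The gamma subunit gene ATP5F1C fell as well (-0.27, adjusted p = 0.00312). The alpha subunit gene ATP5F1A could not be read, at 238 and 391 TPM in NC and 472 and 215 TPM in sh-ANP32B. Its libraries differed within groups by more than any other member of the complex, and its difference of 0.06 turned to -0.30 without NC replicate 1 and to -0.51 without sh-ANP32B replicate 1. ATP5F1E, the epsilon subunit, had the largest rise of the 94 genes, from 9.67 and 9.93 TPM to 14.0 and 17.1 TPM (0.61, SE 0.12, adjusted p = 0.0115). It shares 1180 exonic bases with TUBB1 on the other strand, and whether the counting used strand is not given in the sources used here.

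The 3 genes of the c-ring, the rotor that protons turn, encode the same mature protein. ATP5MC1 measured 226 and 226 TPM in NC and 151 and 154 TPM in sh-ANP32B, 67.6% of the NC mean (log2 fold change -0.56, SE 0.037, adjusted p = 2.86e-04). ATP5MC2 went from 297 and 305 TPM to 234 and 271 TPM (-0.26, SE 0.074, adjusted p = 0.0361). ATP5MC3 was at 183 and 270 TPM in NC and 135 and 249 TPM in sh-ANP32B (-0.28, SE 0.31, adjusted p = 0.513), so its groups overlapped, and its sign turned without NC replicate 2 (0.01) or sh-ANP32B replicate 1 (0.16). The call of ATP5MC2 was lost without NC replicate 1 (adjusted p = 0.0803), NC replicate 2 (0.109) or sh-ANP32B replicate 1, where it stood at -0.15 (0.0680). Of the 4 genes of the peripheral stalk, ATP5PO fell (-0.27, adjusted p = 0.00502) and the other 3 stood between -0.08 and -0.07. Among the other subunits ATP5MJ, ATP5MF and ATP5MG fell, with ATP5MJ at 98.3 and 101 TPM against 81.4 and 75.0 TPM (-0.35, SE 0.057, adjusted p = 0.00537), and ATP5MK differed by 0.03. The calls of ATP5PO, ATP5MF and ATP5MG were lost without a variance trend (adjusted p = 0.0549, 0.0631 and 0.108). That of ATP5MG was also lost when rescaled over nuclear genes (0.0530) and under quantile normalization (0.0506), and ATP5MG stood at -0.15 without sh-ANP32B replicate 1.

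**Figure D4:**
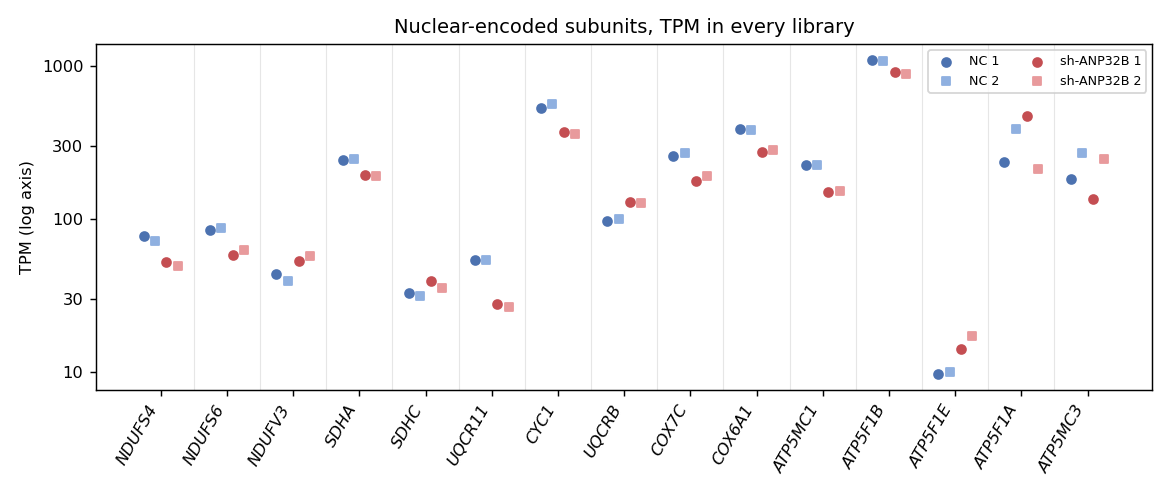
TPM of 15 nuclear genes in each library on a log axis (points are single libraries). UQCR11 shows the largest fall, from 54.0 and 54.2 TPM in NC to 27.9 and 26.5 TPM in sh-ANP32B, and only ATP5F1A and ATP5MC3 have overlapping groups among those plotted.

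Many of the nuclear genes have annotated pseudogenes named after them, with which reads could be shared. Of the 48 with such a pseudogene 27 fell and 5 rose, with a median log2 fold change of -0.19. Of the 33 without one 14 fell and 4 rose, with a median of -0.21. Both medians lay below 0, but the share that fell among those without one (42.4%) was near the 40.6% of genes at 50 TPM or more.

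Other genes of the pathway were taken from lists of textbook members. Of 5 respiratory chain genes outside the symbol pattern 3 fell. COX4I1, the main isoform of a regulatory subunit of complex IV, went from 662 and 632 TPM to 557 and 553 TPM (log2 fold change -0.22, adjusted p = 0.00648). NDUFAB1, the acyl carrier protein of complex I, fell by 0.38 and CYCS, cytochrome c, by 0.24 on the log2 scale. Of 52 assembly factors 20 fell and 5 rose, with a median of -0.19. Beside this and the lists that follow stand the backgrounds given above, 19.7% lower over all genes and 40.6% lower among genes at 50 TPM or more, and shares near these are no result about a list. Of those of complex I, 8 of 17 fell, led by TMEM186 (-0.59), NDUFAF2 (-0.57) and NDUFAF4 (-0.55), and TIMMDC1 rose. Of 4 factors of complex II, SDHAF3 (-0.74) and SDHAF1 (-0.44) fell and SDHAF2 (0.42) rose. Of 6 factors of complex III, UQCC2 (-0.70), UQCC3 (-0.58) and BCS1L (-0.41) fell. Those of complex IV were mixed, with 7 of 21 falling and SURF1 (0.39) and COX20 (0.64) rising. Of 4 factors of complex V, ATPAF1 rose (0.92), from 2.47 and 2.58 TPM to 5.62 and 5.75 TPM, and 3 did not pass the test.

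The next lists hold genes that maintain, transcribe and process mitochondrial DNA and RNA. Of 11 genes for the upkeep and transcription of mitochondrial DNA 6 fell and 1 rose, with a median log2 fold change of -0.28. TFAM, which packages mitochondrial DNA and starts its transcription, went from 37.8 and 38.4 TPM to 25.6 and 23.4 TPM (-0.62, SE 0.073, adjusted p = 0.00165). POLRMT, the mitochondrial RNA polymerase, went from 73.3 and 74.0 TPM to 54.7 and 50.8 TPM (-0.47, adjusted p = 0.00181), and the helicase TWNK (-0.74) and the single-strand binding protein SSBP1 (-0.50) fell as well. POLG2, the accessory subunit of the DNA polymerase, rose (0.21, adjusted p = 0.0440). Of 16 genes for mitochondrial RNA processing and stability 7 fell and 1, HSD17B10, rose. LRPPRC, which with SLIRP stabilizes mitochondrial mRNAs, measured 174 and 175 TPM in NC and 107 and 98.9 TPM in sh-ANP32B (-0.76, SE 0.052, adjusted p = 3.10e-04), and SLIRP fell by 0.39 on the log2 scale. The knockdown libraries lay below both NC libraries for LRPPRC, SLIRP, TFAM and POLRMT.

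Of 9 nuclear regulators of respiratory genes 2 fell and 1 rose, a share of lower genes near the 19.7% of all genes. NRF1 measured 17.7 and 16.4 TPM in NC and 11.2 and 11.8 TPM in sh-ANP32B (log2 fold change -0.53, adjusted p = 0.00747). Any link between this and the NRF1 motifs in the promoters above was not tested. PPRC1, a coactivator of NRF1, fell (-0.52), SP1 rose (0.40), and GABPA, GABPB1, YY1, ESRRA, PPARGC1A and PPARGC1B did not pass the test. MYC went from 376 and 370 TPM to 240 and 236 TPM (-0.65, adjusted p = 1.91e-04). Of 17 genes of the citric acid cycle and pyruvate dehydrogenase 9 fell and 1, OGDH, rose, with a median of -0.21. CS, citrate synthase, went from 235 and 231 TPM to 148 and 156 TPM (-0.61, adjusted p = 3.12e-04), and SUCLG2 (-0.59) and FH (-0.55) fell by nearly as much.

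**Figure D5:**
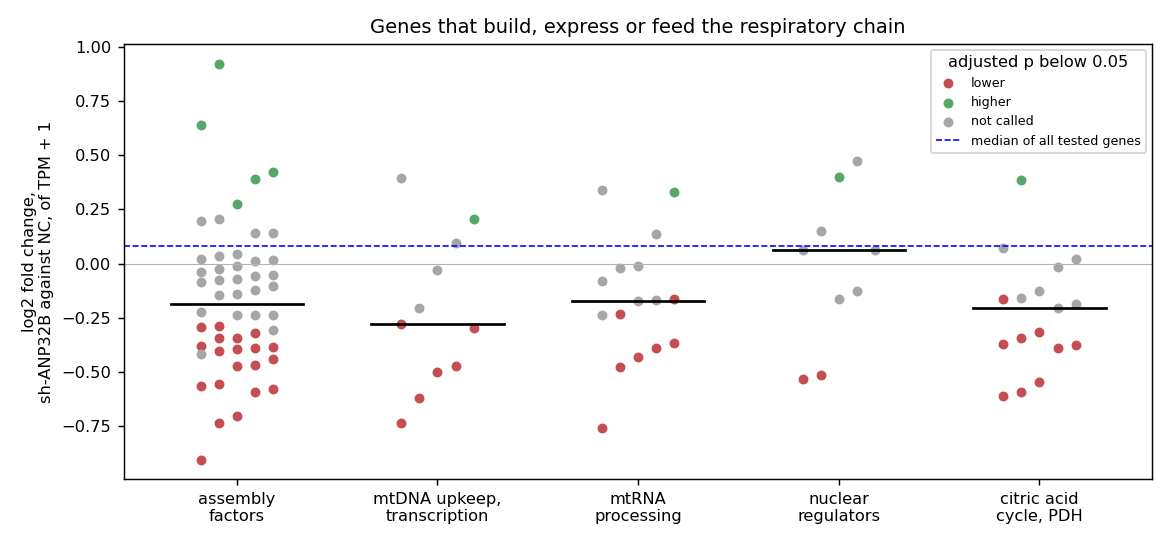
Log2 fold change of the genes in each pathway list, with 1 point per gene, color for adjusted p below 0.05, a black line at the list median and a dashed line at the median of all tested genes (0.08). The medians are -0.19 for all assembly factors, -0.28 for mitochondrial DNA upkeep and transcription, -0.17 for mitochondrial RNA processing, 0.06 for the regulators and -0.21 for the citric acid cycle and pyruvate dehydrogenase.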

How the data were processed

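RNA of MV4-11 cells was sequenced for 2 NC and 2 sh-ANP32B libraries (TruSeq RNA kit), and per the labels reads were aligned to hg38 with HISAT2 (version 2.0.5). The authors deposited 1 value per gene and library, read here as TPM from the near-equal totals (997271 to 998546). The gene counter, its annotation and its use of strand are not given in the sources used here. TPM keep no read numbers, so depth is unknown and no counting interval can be given.

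Of 18885 identifiers 17290 were matched to GENCODE version 44. Log2(TPM + 1) was tested with limma (version 3.58.1, R 4.3.3; lmFit and eBayes with a trend) for the 16937 genes that reached 1 TPM in 2 or more libraries, adjusted by the Benjamini-Hochberg method. The fit was tested on simulated data. The study used DESeq2, which TPM do not allow. Lists are described by counts and medians with no set test.

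The symbol rule, the lists and the rule for named genes were chosen with earlier results of these data known. Named were all mitochondrial genes, the subunits of complex II, catalytic or electron-carrying subunits, the 3 lowest and 3 highest nuclear genes of each complex, isoform pairs and leading list genes. NDUFS5, NDUFV2, NDUFS8, NDUFA1, NDUFB2 to NDUFB7, NDUFA8, NDUFA2, UQCRC1, COX5A, ATP5F1C, ATP5PO, ATP5MF and ATP5MG were named after their values were seen. Alternatives were a replicate block, a pseudocount of 0.1, other filters on low values, 3 other scalings, no variance trend, the study's limits, no genes with pseudogenes and each library left out. Added after seeing the data were sums with pseudogenes or overlapping genes.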

Additional observations from a re-analysis of the deposited data

How the results depend on the processing

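The 41 nuclear genes that fell became 21 without a variance trend, 6 at the study's limits and 14 of the 33 genes without an annotated pseudogene, and 29 to 39 with 1 library left out. The 9 that rose became 5 under median-of-ratios scaling, 4 without a variance trend, 1 at the study's limits, 4 without genes that have a pseudogene, and 4 to 8 with 1 library left out. The 10 mitochondrial genes that rose became 4 under median-of-ratios scaling, 5 under quantile normalization, 3 without a variance trend, 1 at the study's limits, and 8 to 10 with 1 library left out, and 1 fell under each of median-of-ratios scaling and quantile normalization beside 0 otherwise. The 41 became 34 when rescaled over nuclear genes, 51 under median-of-ratios scaling and 35 under quantile normalization. All 21 nuclear genes that were lower without a variance trend were among the 41. The cause of these changes was not tested.

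Under rescaling over nuclear genes, median-of-ratios scaling and quantile normalization in turn, the nuclear median was -0.16, -0.28 and -0.18, the mitochondrial median 0.29, 0.17 and 0, the summed mitochondrial difference 0.22, 0.10 and 0.028, and the summed nuclear difference -0.17, -0.29 and -0.16. By construction, quantile normalization gives a difference of 0 to a gene with the same rank in every library, as the most abundant mitochondrial mRNAs have. With 1 library left out these 4 values ranged from -0.20 to -0.16, 0.22 to 0.27, 0.16 to 0.21 and -0.21 to -0.19. Without genes that have a pseudogene the nuclear median was -0.21, and no mitochondrial value remained, since all 13 have one.

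Read at 2 decimals, the differences of 6 named genes, none called in the test reported, turned in sign. Those of MT-ND4, UQCR10 and COX8C also crossed 0, but from or to a value of 0.00. That of ATP5F1A was -0.022 under median-of-ratios scaling, -0.30 without NC replicate 1 and -0.51 to 0.63 over all libraries left out, and that of ATP5MC3 was 0.0058 without NC replicate 2 and -0.71 to 0.16 over them. ATP5MK was at -0.055 under median-of-ratios scaling and at -0.017 to 0.074 with 1 library left out, and COX7A1 at -0.15 under quantile normalization and at -0.070 to 0.56. MT-ND4L was at 0.022 when rescaled over nuclear genes and at -0.034 to 0.011 with 1 library left out, and NDUFA3 at -1.37 to 0.25. Same-numbered libraries did not deviate together (correlation -0.02 over 16937 genes), so the numbers were not taken as pairs. With the replicate block 37 nuclear genes fell and 6 rose, and 9 mitochondrial genes rose and 0 fell. NDUFS1, NDUFA1, NDUFB2, SDHB, SDHD, COX7B, ATP5MG and MT-CO2 lost their call under the block (adjusted p of 0.0505 to 0.0803).

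The limits are 2 libraries per group in 1 cell line, an unknown depth, and changes that are mostly under 0.5 on the log2 scale. TPM are shares, so a difference in total RNA per cell cannot be seen.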

Other observations

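Beside the 13 mRNAs, the mitochondrial genome gave 24 listed RNAs, here named after their values were seen. Both ribosomal RNAs rose, MT-RNR1 from 1814 and 1770 TPM to 2170 and 2184 TPM (log2 fold change 0.28, limma adjusted p = 0.00177) and MT-RNR2 from 11329 and 10905 TPM to 12651 and 12681 TPM (0.19, adjusted p = 0.0133). Of 22 transfer RNA genes 11 rose, 5 fell and 6 did not pass the test, with differences from -0.47 to 1.01. Over all genes tested 26% were higher and 19.7% lower. The share of transfer RNA genes that fell is near the latter and is no result about them. MT-TF rose most, from 63.5 and 64.2 TPM to 132 and 128 TPM (1.01, adjusted p = 1.17e-04), followed by MT-TV (0.88) and MT-TE (0.80). The neighbors MT-TA, MT-TN, MT-TC and MT-TY all fell, with MT-TC at 3108 and 3051 TPM in NC and 2441 and 2735 TPM in sh-ANP32B (-0.25, adjusted p = 0.0186), as did MT-TK (-0.47). A library prepared with a kit for long RNA does not measure mature transfer RNAs well, and the values of these short genes can hold reads of longer transcripts, which was not tested.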
